A study of Mus musculus with 12 samples.

Results

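Metallothioneins and zinc transporters were followed in cultured primary mouse hepatocytes loaded with FAC, with and without a scavenger of reactive oxygen species (ROS). The members are 7 listed genes, taken by symbol: the metallothionein genes Mt1 and Mt2, the metal-sensing transcription factor gene Mtf1, the exporter genes Slc30a1 and Slc30a10, and the importer genes Slc39a8 and Slc39a10. All 7 had enough counts to be tested, among 13535 genes tested of 55487 listed. The study asked, by its title, how mitochondrial ROS relate to the sensitivity of hepatocytes to ferroptosis, the iron-dependent form of cell death that runs through oxidised lipids.

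The 12 libraries fall into 4 groups of 3, all of primary hepatocytes from liver, and the labels name no strain, age, allele or transgene. Control cells received neither scavenger nor FAC. A second group, called FAC here, received FAC alone; the labels do not spell the abbreviation out and give no dose or time. The third, Lip-1+FAC, had liproxstatin-1, which the labels call a lipid ROS scavenger, on day 2 of culture before FAC. The fourth, MT+FAC, had Mito-TEMPO, described as a scavenger of ROS in mitochondria, on the same day before FAC. In these names MT always stands for Mito-TEMPO and never for metallothionein. No group received a scavenger without FAC, so a scavenger's own effect and its effect on the response to FAC cannot be told apart. The labels do not say that replicates came from separate animals or cultures, so p-values measure only the spread between these libraries, which may be technical.

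Metallothioneins are small cysteine-rich proteins that bind zinc and copper, and hepatocytes make them in large amounts. MTF1 is the zinc-finger factor that senses free zinc and switches on the metallothionein genes and Slc30a1 through short DNA motifs called metal response elements. SLC30 proteins carry metal out of the cytosol and SLC39 proteins carry it in, and several of them carry manganese, iron or cadmium as well as zinc.

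The promoters of the 3 members that rose with FAC under at least one way of counting are shown because each holds at least 1 copy of the core that MTF1 is known to read. The stretches are from RefSeq on build GRCm38.p6 and end just before the first annotated start. They cover chr8:94178839-94179081 for Mt1, chr8:94172368-94172617 for Mt2 and chr1:191906531-191906766 for Slc30a1, all on the plus strand, 5′ to 3′. Capitals mark matches to the metal response element core, TGCACNC or TGCGCNC, on either strand.
Mt1: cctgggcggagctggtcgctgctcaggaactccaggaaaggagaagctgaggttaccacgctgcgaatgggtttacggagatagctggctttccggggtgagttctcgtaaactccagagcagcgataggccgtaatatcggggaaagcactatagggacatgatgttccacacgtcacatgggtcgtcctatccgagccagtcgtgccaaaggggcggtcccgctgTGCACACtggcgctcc
Mt2: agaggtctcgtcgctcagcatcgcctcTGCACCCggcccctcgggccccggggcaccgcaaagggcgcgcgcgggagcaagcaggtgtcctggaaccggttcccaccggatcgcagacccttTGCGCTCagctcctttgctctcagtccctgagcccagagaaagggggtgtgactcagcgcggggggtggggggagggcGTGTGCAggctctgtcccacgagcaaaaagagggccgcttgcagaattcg
Slc30a1: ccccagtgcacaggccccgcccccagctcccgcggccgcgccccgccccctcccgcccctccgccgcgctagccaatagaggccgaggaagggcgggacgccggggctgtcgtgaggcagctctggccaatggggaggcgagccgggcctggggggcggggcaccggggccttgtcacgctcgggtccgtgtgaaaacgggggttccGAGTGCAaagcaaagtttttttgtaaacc

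The core was searched in windows of 300 bases, from 250 before each RefSeq start to 50 after it, on both strands. At least 1 match stood in 25.7% of all 32851 promoters, and at least 3 stood in 1.97%. The Mt2 window held 4 matches, with first bases at -223, -128, -50 and 5 from the RefSeq start. The Mt1 window held 3, of which only that at -23 lies in the printed stretch, and the others stand at 3 and 21 from the RefSeq start. Only 1 start of Mt1 was searched, and whether most transcripts begin there was not tested. Slc30a10, whose expression moved the other way with FAC, also had 3 matches, and 2 of these overlap as one palindrome. Slc30a1 had 2 matches, at -43 and 31. The windows of Mtf1 and both windows of Slc39a10 had none, and of the 2 windows of Slc39a8, 1 had a single match. For Mtf1 and Slc39a10 the windows are not at the start of the gene in GENCODE, the annotation used for exons. Slc39a10 starts there at chr1:46892852, and its RefSeq starts are at 46925776 and 46853618. Mtf1 starts there at chr4:124802104, and its RefSeq start is at 124802549. The core of the antioxidant response element, TGACNNNGC, was found once each in the windows of Mt2, Slc30a1 and Slc39a8, against 12.4% of all promoters with at least 1. A match describes the letters and does not show that a factor binds there.

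The libraries held 22991598 to 31683376 gene counts, except FAC replicate 2 with 52529278, whose file is marked as combined. Counts assigned to genes made up 75.8% to 81.2% of those listed. Values below are counts scaled to library size (CPM) from the unstranded column of the deposited tables unless another is named. The labelled cell type was checked against its markers: all 8 hepatocyte markers were present and summed to 12700 to 17350 CPM, while lymphocyte and neutrophil markers summed to under 1 CPM, with Cd3e, Nkg7 and S100a9 at 0 throughout. The hepatocyte sum was lower in both scavenger groups, at 12700 to 14420 CPM, than in control and FAC cells, at 16300 to 17350 CPM. In such bulk samples, fewer cells of a type and less RNA per cell cannot be told apart.

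Across all groups, 2 members rose and 1 fell with FAC (3 of 7 called, against 36.6% of all genes tested, 17.5% up and 19.1% down). With liproxstatin-1 before FAC, 1 rose and 4 fell relative to FAC (5 of 7, against 39.9%, 20.7% up and 19.2% down). With Mito-TEMPO the counts were the same, 1 up and 4 down (5 of 7, against 40.9%, 21.2% up and 19.7% down). A gene is called here at an adjusted p under 0.05 in edgeR's quasi-likelihood test, with Benjamini-Hochberg adjustment over all genes tested. The member medians were log2 0.15, -0.64 and -0.46 in these comparisons, where the medians of all genes were -0.0061, 0.00062 and -0.0011. For 5 members in each comparison every library of one group lay beyond every library of the other, against 46.2%, 50.8% and 52.9% of all genes tested. The last 2 comparisons share the FAC libraries, and the first uses those libraries as well.

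Mt1, the main hepatic metallothionein by counts here, lies at chr8:94179082-94180327 on the plus strand and shares no exonic base with another gene. Its level was 2123, 1598 and 2361 CPM in the control libraries and 3329, 3577 and 3545 CPM with FAC. It was 1442, 1453 and 1022 CPM with liproxstatin-1 before FAC, and 1257, 1369 and 1334 CPM with Mito-TEMPO. Every FAC library was above every control library, and every scavenger library was below every control library as well as below FAC. Mt1 thus rose 1.72-fold with FAC (log2 0.78, SE 0.15, edgeR adjusted p = 0.00253). It then fell 2.67-fold from FAC with liproxstatin-1 (log2 -1.42, SE 0.15, adjusted p = 4.37e-05 in edgeR). Mito-TEMPO gave a 2.64-fold fall from FAC (log2 -1.40, SE 0.15, adjusted p = 5.39e-05 in edgeR).

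The scavenger groups were not back at the control level but under it. Mt1 was lower than in control cells by 1.55-fold with liproxstatin-1 (log2 -0.63, edgeR adjusted p = 0.0105) and by 1.54-fold with Mito-TEMPO (log2 -0.62, edgeR adjusted p = 0.0177). The first call was lost when only the 6 libraries compared were fitted (adjusted p = 0.0591). The second was lost with no filter on low counts (adjusted p = 0.0648) and without control replicate 1 or 3 or any 1 of the MT+FAC replicates (adjusted p from 0.0517 to 0.0667). Of all genes tested, 30.2% were called between Lip-1+FAC and control and 19.8% between MT+FAC and control, where 3 and 2 of the 7 members were called.

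Some markers of other liver cells moved in the same direction as Mt1. The summed level of the 8 Kupffer cell and macrophage markers was 225 to 256 CPM in control, 290 to 323 CPM with FAC, 117 to 147.3 CPM in Lip-1+FAC and 143.9 to 176 CPM in MT+FAC, with no marker at 0 throughout. Almost all of this sum was Cd68, a lysosomal membrane glycoprotein. Without Cd68, a split made after its level was seen, the other 7 markers summed to 7.66 to 11.5, 10.9 to 12.1, 9.81 to 11.8 and 9.06 to 14.2 CPM in the same order, and every group overlapped another. The 8 stellate cell and fibroblast markers summed to 20.3 to 28.4 CPM in control, 30.0 to 38.6 CPM with FAC, 14.4 to 17.4 CPM in Lip-1+FAC and 15.9 to 21.0 CPM in MT+FAC. Without Reln, the most abundant of them, control and FAC overlapped, at 14.4 to 19.4 and 14.0 to 22.7 CPM, and the scavenger groups were at 10.9 to 12.6 and 11.2 to 15.2 CPM. The 6 cholangiocyte markers ran at 58.6 to 69.0, 98.4 to 123, 110 to 125 and 104 to 145 CPM. Without Spp1, the most abundant of these, the other 5 summed to 20.9 to 23.8, 58.0 to 74.3, 12.4 to 15.7 and 17.1 to 20.1 CPM, up with FAC and under control with either scavenger, the order of Mt1. The 8 sinusoidal endothelial markers summed to 37.4 to 39.2 CPM in control, 37.1 to 37.9 CPM with FAC, 29.4 to 30.3 CPM in Lip-1+FAC and 28.6 to 33.1 CPM in MT+FAC. Without Stab2, the most abundant of these, the other 7 summed to 8.07 to 11.8, 9.94 to 12.2, 10.7 to 13.7 and 10.9 to 13.6 CPM, and every group overlapped another. The splits without Reln, Spp1 and Stab2 were likewise made after their levels were seen. The part of these cells in the Mt1 result was not tested.

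**Figure D1:**
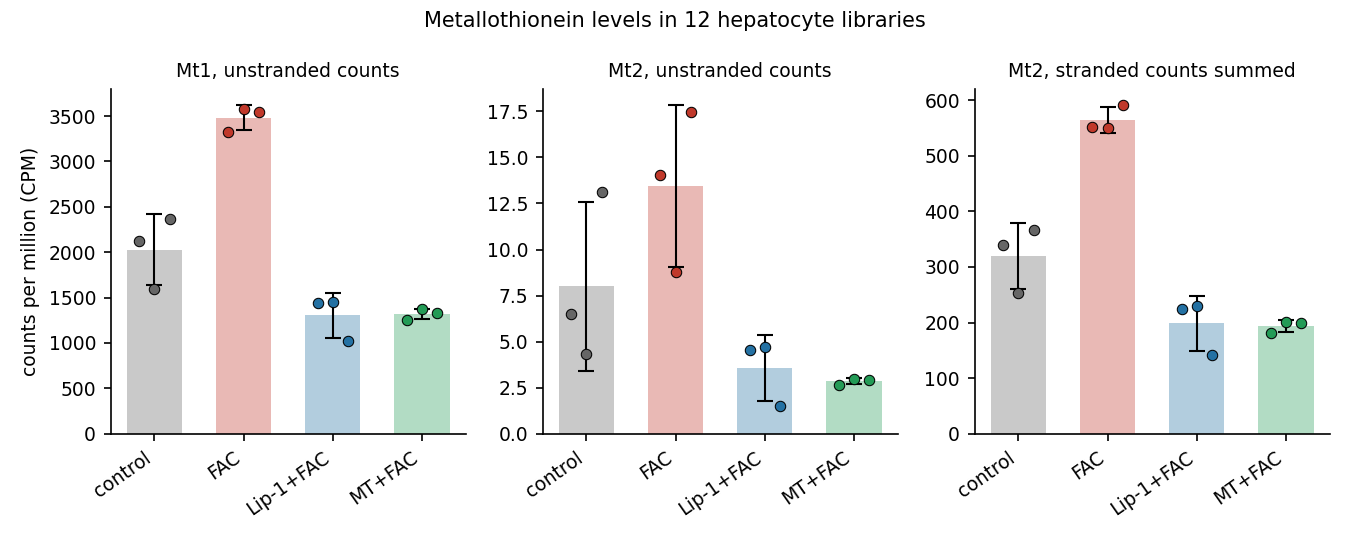
Levels of Mt1 and Mt2 in the 12 libraries, in CPM on linear axes that start at 0; points are libraries, bars are means and whiskers are SD (n = 3). The FAC libraries of Mt1 lie between 3329 and 3577 CPM, above all others; Mt2 shows the same order when the stranded counts are summed, and a much lower and more scattered level in the unstranded counts.

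Mt2 needs a caution on counting before its values. It lies upstream of Mt1 at chr8:94172664-94173568, on the plus strand, and the annotated gene Gm45774 runs opposite to it at chr8:94170748-94173412. That single-exon gene covers 73.5% of the 588 exonic bases of Mt2 and leaves free only the last 156, at chr8:94173413-94173568. A read on shared bases belongs to both genes when strand is ignored and is then counted for neither. The libraries carry no strand information, since 49.9% to 50% of the stranded counts fell on the first strand column, so reads of Mt2 and of Gm45774 cannot be told apart. The unstranded column gave Mt2 35 to 459 counts per library, and the 2 stranded columns together gave it 3703 to 31349. The unstranded column therefore kept 0.945% to 3.29% of that sum for Mt2, where for Mt1 it kept at least 99.995%.

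**Figure D2:**
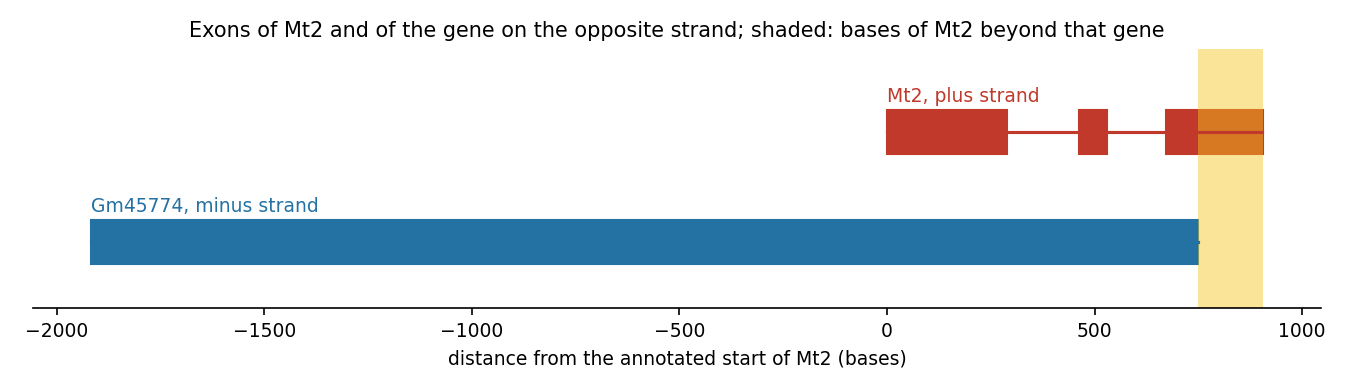
Exons (boxes) of Mt2 on the plus strand and of Gm45774 on the minus strand, by distance in bases from the annotated start of Mt2. The shaded band is the last 156 bases of Mt2, beyond the end of Gm45774, the only exonic bases whose reads the unstranded count can give to Mt2.

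Gm45774 itself took few reads where it does not face Mt2. It runs for 1916 bases before the start of Mt2, and its unstranded counts were 7 to 34 per library. In the stranded columns it was at 117 ± 21.0 CPM per kb of exon in control and 207 ± 7.37 CPM per kb with FAC (SD, n = 3), which includes every read it shares with Mt2.

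In the unstranded column, Mt2 was at 6.49, 4.35 and 13.1 CPM in control, 14.1, 8.79 and 17.5 CPM with FAC, 4.55, 4.68 and 1.48 CPM in Lip-1+FAC, and 2.66, 2.97 and 2.89 CPM in MT+FAC. Control and FAC libraries overlapped, and the difference was not called (log2 0.74, SE 0.45, edgeR adjusted p = 0.24). Without control replicate 3 it was called (log2 1.30, edgeR adjusted p = 0.0417). Over the 21 alternatives this difference ran from log2 0.435 to 1.30. Relative to FAC, Mt2 fell 3.68-fold with liproxstatin-1 (log2 -1.88, SE 0.48, edgeR adjusted p = 0.0116) and 4.69-fold with Mito-TEMPO (log2 -2.23, SE 0.49, edgeR adjusted p = 0.00539).

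With the stranded columns summed, Mt2 was at 339, 253 and 367 CPM in control and 552, 551 and 591 CPM with FAC. It was at 225, 229 and 141.9 CPM in Lip-1+FAC and 181, 200 and 198 CPM in MT+FAC. The libraries then fell into the order seen for Mt1, with no overlap between FAC, control and either scavenger group. On this scale Mt2 rose with FAC (log2 0.82, SE 0.18, edgeR adjusted p = 0.00601). It fell from FAC with liproxstatin-1 (log2 -1.51, SE 0.18, edgeR adjusted p = 1.38e-04) and with Mito-TEMPO (log2 -1.55, SE 0.18, edgeR adjusted p = 1.31e-04). It was also under control in both, by log2 -0.69 (edgeR adjusted p = 0.0191) and -0.73 (edgeR adjusted p = 0.0219), differences that the unstranded column did not call (edgeR adjusted p = 0.11 and 0.0652). The second of these, MT+FAC against control, was called on the unstranded column by DESeq2 (adjusted p = 0.0218). By edgeR it was called there with a mean CPM of at least 5 (adjusted p = 0.0422), with only the libraries compared (0.0333), without Lip-1+FAC replicate 3 (0.0292) and without control replicate 2 (0.0302). With these sums, 4 members instead of 3 were called for FAC against control, where 35.8% of 15006 genes were.

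Mt1 and Mt2 together took 0.204% ± 0.0384 of the unstranded gene counts in control, 0.347% ± 0.0132 with FAC, 0.130% ± 0.0250 with liproxstatin-1 first and 0.133% ± 0.00567 with Mito-TEMPO first (SD, n = 3 each). An exact two-sided permutation test over libraries gave p = 0.1 for each pair of groups other than the scavengers, the smallest that 3 against 3 allows, and 0.12 after adjustment over 6 pairs. The ratio of Mt1 to Mt2 counts ran from 180 to 690 in the unstranded column and from 5.48 to 6.53 with the stranded columns summed. On the second scale it was 5.80 ± 0.102 in control, 5.68 ± 0.245 with FAC, 6.11 ± 0.360 with liproxstatin-1 first and 6.20 ± 0.0821 with Mito-TEMPO first (SD, n = 3). The MT+FAC libraries, at 6.12 to 6.28, lay above every control library (5.72 to 5.92) and every FAC library (5.48 to 5.96). In both ways of counting, an exact two-sided permutation test of the ratio gave p = 0.1, the smallest that 3 against 3 allows, for MT+FAC against FAC and against control (0.3 after adjustment over 6 pairs), and a larger p for the other 4 pairs.

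Slc30a1, which encodes the plasma membrane exporter ZnT1, rose with FAC, as Mt1 did. The gene lies at chr1:191906767-191913247 on the plus strand. It was at 86.1, 74.6 and 67.0 CPM in control, 133, 127 and 137 CPM with FAC, 79.7, 87.5 and 86.8 CPM in Lip-1+FAC, and 80.0, 81.3 and 85.1 CPM in MT+FAC. The FAC libraries stood above all 9 others, and the scavenger libraries overlapped the control range. Slc30a1 rose 1.74-fold with FAC (log2 0.80, SE 0.08, edgeR adjusted p = 3.66e-07). It fell 1.56-fold from FAC with liproxstatin-1 (log2 -0.64, SE 0.08, edgeR adjusted p = 3.12e-06) and 1.61-fold with Mito-TEMPO (log2 -0.69, SE 0.08, edgeR adjusted p = 1.97e-06).

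Against control, Slc30a1 in the scavenger groups differed by log2 0.16 (95% interval -0.00 to 0.32, edgeR adjusted p = 0.132) with liproxstatin-1 and 0.11 (interval -0.05 to 0.28, edgeR adjusted p = 0.321) with Mito-TEMPO. Neither was called, although without control replicate 1 the first was (log2 0.26, edgeR adjusted p = 0.016). Mt1 was under control in the same libraries, but whether the 2 genes differ in this was not tested. The gene 1700034H15Rik shares 8.92% of the exonic bases of Slc30a1. In FAC replicate 2 the unstranded column kept 74.9% of the stranded sum of Slc30a1, where the other 11 libraries kept 85.5% to 88.8%. Without that library the rise with FAC was log2 0.83 (edgeR adjusted p = 2.25e-06).

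Slc30a10 moved against Slc30a1 on FAC. The gene lies at chr1:185454848-185468762 on the plus strand, and its protein is known chiefly as a manganese exporter of liver and gut. It was at 11.8, 11.8 and 11.9 CPM in control, 5.88, 6.80 and 8.44 CPM with FAC, 2.51, 3.68 and 4.69 CPM in Lip-1+FAC, and 4.59, 5.53 and 5.14 CPM in MT+FAC. Every FAC library was under every control library, and every scavenger library was under every FAC library. Slc30a10 fell 1.69-fold with FAC (log2 -0.75, SE 0.17, edgeR adjusted p = 0.00238). Relative to FAC it fell a further 1.94-fold with liproxstatin-1 (log2 -0.96, SE 0.19, edgeR adjusted p = 5.53e-04).

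With Mito-TEMPO the fall of Slc30a10 from FAC was 1.38-fold and near the threshold (log2 -0.47, SE 0.18, edgeR adjusted p = 0.0482). That call was lost with upper-quartile scaling (adjusted p = 0.0531) and when any 1 of 9 libraries was left out, namely FAC replicate 2 or 3, Lip-1+FAC replicate 2 or any control or MT+FAC library (adjusted p from 0.0511 to 0.2). Against control the totals were larger and were called, with Slc30a10 at log2 -1.71 in Lip-1+FAC (SE 0.19, edgeR adjusted p = 2.62e-06) and -1.22 in MT+FAC (SE 0.18, edgeR adjusted p = 1.51e-04). Gm2061 shares 9.13% of its exonic bases. Its direction was therefore one way throughout, down with FAC and down again with each scavenger, where Mt1 and Slc30a1 went up and then down.

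Slc39a10, an importer gene that MTF1 is known to repress when zinc is plentiful, ran opposite to the metallothioneins. The gene lies at chr1:46807544-46892852 on the minus strand and had only 58 to 155 counts per library. It was at 2.52, 3.00 and 3.35 CPM in control, 2.27, 2.28 and 2.34 CPM with FAC, 4.40, 5.54 and 4.02 CPM in Lip-1+FAC, and 3.72, 3.99 and 3.37 CPM in MT+FAC. The FAC libraries were the lowest 3 of the 12 and the Lip-1+FAC libraries the highest 3. The fall with FAC was not called (log2 -0.37, SE 0.19, 95% interval -0.77 to 0.03, edgeR adjusted p = 0.141), although the libraries did not overlap, as for 46.2% of all genes tested. Relative to FAC, Slc39a10 rose 2.03-fold with liproxstatin-1 (log2 1.02, SE 0.18, edgeR adjusted p = 2.54e-04) and 1.61-fold with Mito-TEMPO (log2 0.69, SE 0.18, edgeR adjusted p = 0.00653).

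Against control, Slc39a10 was higher in Lip-1+FAC (log2 0.65, SE 0.18, edgeR adjusted p = 0.0119), and this was lost without Lip-1+FAC replicate 2 (adjusted p = 0.0719) or control replicate 1 (adjusted p = 0.0559). In MT+FAC it was not called (log2 0.32, 95% interval -0.07 to 0.71, edgeR adjusted p = 0.24). Another gene, Gm6801, matches Slc39a10 at 94.5% over 348 bases, so a few reads of either could be lost as multimapping.

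Mtf1 and Slc39a8 were not called in any of the 6 comparisons. Mtf1 was at 35.7, 35.1 and 33.6 CPM in control, 39.9, 35.0 and 33.9 CPM with FAC, 38.0, 35.9 and 41.5 CPM in Lip-1+FAC, and 39.8, 38.5 and 36.7 CPM in MT+FAC. The groups of Mtf1 lay within a few CPM of each other: FAC differed from control by log2 0.06 (95% interval -0.11 to 0.23, edgeR adjusted p = 0.613). The messenger of the factor was thus close to level while its best-known targets moved, which says nothing of the amount or activity of the protein.

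Slc39a8, which encodes ZIP8, a carrier of zinc, manganese and iron, was at 11.1, 11.7 and 12.4 CPM in control, 13.3, 12.6 and 13.2 CPM with FAC, 15.7, 12.3 and 14.5 CPM in Lip-1+FAC, and 13.3, 11.98 and 14.5 CPM in MT+FAC. The FAC libraries were just above the control range, with log2 0.15 (95% interval -0.09 to 0.39, edgeR adjusted p = 0.342). Its largest difference was Lip-1+FAC against control, at log2 0.27 (95% interval 0.03 to 0.51, edgeR adjusted p = 0.0859), which was called when Lip-1+FAC replicate 2 was left out (log2 0.37, edgeR adjusted p = 0.0336).

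**Figure D3:**
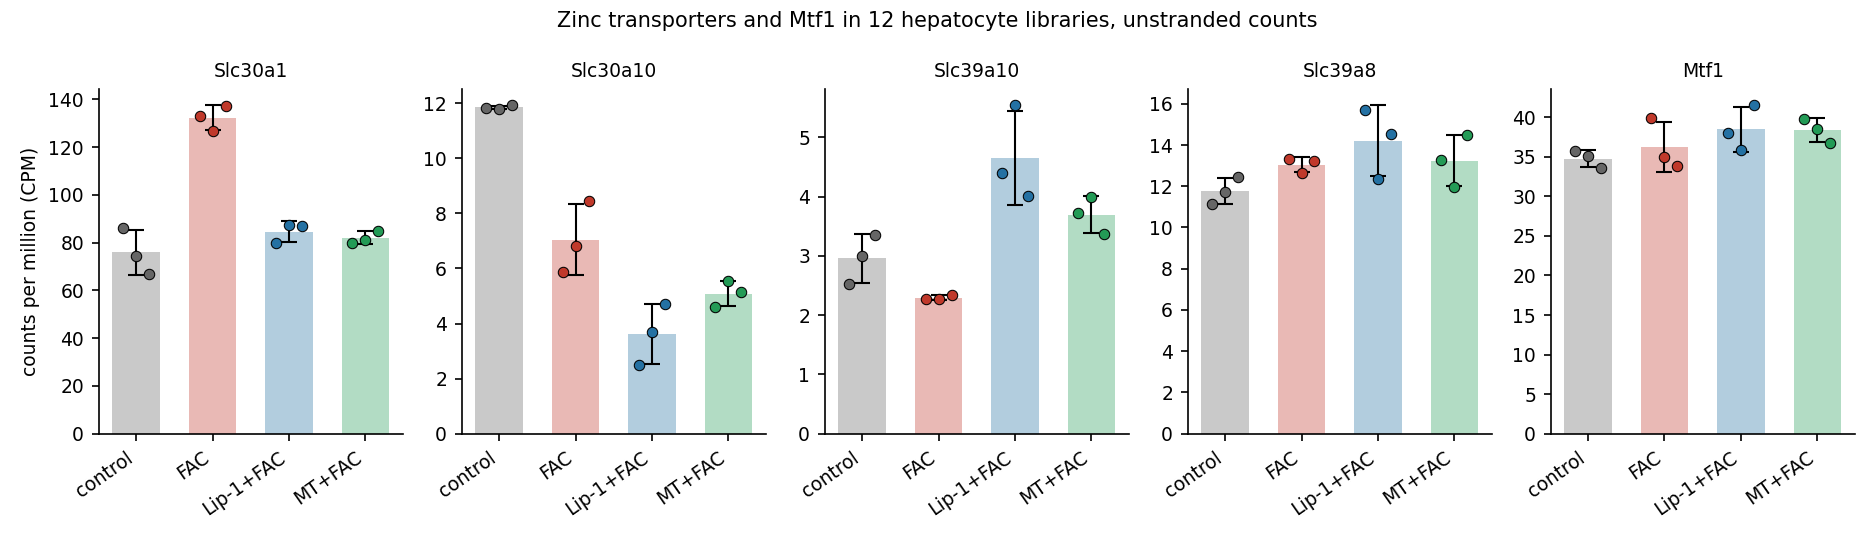
Levels of the 4 transporter genes and of Mtf1 in the 12 libraries, in CPM of unstranded counts on linear axes that start at 0; points are libraries, bars are means and whiskers are SD (n = 3). Slc30a1 is high in the FAC group alone, Slc30a10 steps down from control to FAC and again to Lip-1+FAC, and Slc39a10 is highest in Lip-1+FAC, while Slc39a8 and Mtf1 vary little.

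The 2 scavengers were compared directly over the 7 members. None was called between MT+FAC and Lip-1+FAC by edgeR, where 1.34% of all genes tested were; DESeq2 also called 0, and 1 member, Slc30a10, had an unadjusted p under 0.05. Slc30a10 was 1.41-fold higher with Mito-TEMPO than with liproxstatin-1 (log2 0.49, 95% interval 0.09 to 0.90, edgeR adjusted p = 0.251). Slc39a10 was lower with Mito-TEMPO, by log2 -0.33 (interval -0.71 to 0.04, edgeR adjusted p = 0.45). Mt1 differed by log2 0.02 (interval -0.32 to 0.36, edgeR adjusted p = 0.98) and Slc30a1 by -0.04 (interval -0.20 to 0.12, edgeR adjusted p = 0.872). For Mt2 the interval was wide in the unstranded column, -1.53 to 0.83, and narrower with the stranded columns summed, -0.45 to 0.37. A p that misses the threshold does not show that the scavengers act alike, and these intervals still hold differences of up to log2 0.36 for Mt1 and 0.90 for Slc30a10.

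Per kb of annotated exon and with the stranded columns summed, the mean level over the 12 libraries was 1497 CPM per kb for Mt1 and 542 for Mt2. Slc30a1 followed at 19.1 CPM per kb, Mtf1 at 4.89, Slc39a8 at 1.56, Slc30a10 at 1.21 and Slc39a10 at 0.511. The annotated exons of Mt1, merged over its transcripts, fill its whole span of 1246 bases, while those of Mt2 cover 588 bases with gaps between them. The levels per kb of these 2 genes are therefore not strictly comparable. On this scale the lowest Mt2 library, at 241 CPM per kb, stood above the highest Slc30a1 library, at 29.7. In the unstranded column the mean of Mt2 was 11.8 CPM per kb, under the 17.9 of Slc30a1. The order below Mtf1 changed between groups. Slc30a10 led Slc39a8 in control (2.08 ± 0.0190 against 1.41 ± 0.0823 CPM per kb, SD, n = 3) and trailed it with FAC (1.25 ± 0.149 against 1.57 ± 0.0533). In MT+FAC they stood at 1.57 ± 0.151 for Slc39a8 and 0.873 ± 0.0868 for Slc30a10. In Lip-1+FAC, Slc30a10 was last by its mean, at 0.642 ± 0.167 against 0.702 ± 0.124 for Slc39a10 and 1.70 ± 0.208 for Slc39a8, and its libraries overlapped those of Slc39a10.

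The rest of both transporter families was read alongside the members. Of the 10 zinc exporter genes listed, 8 were tested, and 2 rose and 2 fell with FAC (4 of 8 called, against 36.6% of all genes tested), a median of log2 0.03. Slc30a4, an exporter into vesicles, was at 44.6, 56.01 and 41.6 CPM in control and 118, 110 and 78.0 CPM with FAC. It rose by log2 1.11 (SE 0.16, edgeR adjusted p = 2.26e-04), which with Slc30a1 makes up the exporters that rose. Slc30a6 fell by 0.31 (edgeR adjusted p = 0.0164), a call lost without FAC replicate 2 or 3 or control replicate 2 or 3 (adjusted p from 0.052 to 0.0874) and, with adjusted p = 0.0604, when only the libraries compared were fitted.

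Slc30a4 was at 83.9, 87.8 and 78.1 CPM in Lip-1+FAC and 61.1, 77.1 and 74.3 CPM in MT+FAC, each library above the control range. Its fall from FAC was called with Mito-TEMPO (log2 -0.53, SE 0.15, edgeR adjusted p = 0.0177), though not without FAC replicate 1 or 2 or MT+FAC replicate 1 (adjusted p from 0.0639 to 0.0744). With liproxstatin-1 it was not called (log2 -0.29, SE 0.15, edgeR adjusted p = 0.154), and the libraries overlapped those of FAC. Slc30a5, an exporter into the early secretory pathway, rose slightly relative to FAC with liproxstatin-1 (log2 0.38, edgeR adjusted p = 9.17e-05) and with Mito-TEMPO (log2 0.28, edgeR adjusted p = 0.00141).

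Of the 14 importer genes listed, 11 were tested, and 1 rose and 2 fell with FAC (3 of 11 called, against 36.6% of all genes tested), a median of log2 -0.15. Slc39a6, an importer of the plasma membrane, was at 61.4, 59.9 and 61.6 CPM in control, 95.03, 94.8 and 102 CPM with FAC, 70.8, 64.9 and 73.7 CPM in Lip-1+FAC, and 59.6, 70.2 and 60.9 CPM in MT+FAC. Its FAC libraries stood above all others, as in Slc30a1. Every Lip-1+FAC library of Slc39a6 was also above every control library, which Slc30a1 did not show. That difference was called (log2 0.20, edgeR adjusted p = 0.0476), but the call was lost under 11 of the 21 alternatives. Slc39a6 rose by log2 0.67 with FAC (SE 0.07, edgeR adjusted p = 1.16e-06), then fell from FAC by 0.48 with liproxstatin-1 (SE 0.07, edgeR adjusted p = 3.75e-05) and by 0.61 with Mito-TEMPO (SE 0.07, edgeR adjusted p = 3.26e-06). It is also the nearest relative of Slc39a10 in the family, which rose from FAC with each scavenger. The fall of Slc39a10 with FAC was not called (edgeR adjusted p = 0.141).

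Slc39a14, which encodes ZIP14, an importer of iron that is not bound to transferrin as well as of zinc and manganese, was at 266, 234 and 228 CPM in control and 190, 189 and 216 CPM with FAC. Cells given liproxstatin-1 first had 127, 139 and 143.2 CPM, and those given Mito-TEMPO 159, 164 and 165 CPM. It thus stepped down with FAC and again with each scavenger, as Slc30a10 did. Slc39a14 fell with FAC by log2 0.29 (SE 0.07, edgeR adjusted p = 0.00273), from FAC by 0.54 with liproxstatin-1 (SE 0.07, edgeR adjusted p = 8.45e-06) and by 0.28 with Mito-TEMPO (SE 0.07, edgeR adjusted p = 0.00329).

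Relative to FAC, 3 importers rose and 3 fell with liproxstatin-1 (6 of 11 called, against 39.9% of all genes tested), and 4 rose and 4 fell with Mito-TEMPO (8 of 11, against 40.9%). Slc39a4, an importer of the plasma membrane, rose by log2 0.62 (edgeR adjusted p = 1.24e-05) and 0.58 (edgeR adjusted p = 2.98e-05) in turn. Slc39a9, an importer of the secretory pathway, rose by log2 0.35 (edgeR adjusted p = 1.24e-04) and 0.27 (edgeR adjusted p = 0.00126). Slc39a1, also of the plasma membrane, fell by log2 0.50 (edgeR adjusted p = 0.0105, and 0.0643 without Lip-1+FAC replicate 3) and 0.52 (edgeR adjusted p = 0.00841). Slc39a13 fell by log2 0.37 with FAC (edgeR adjusted p = 0.00998), a call lost without FAC replicate 1 (adjusted p = 0.0521) or control replicate 2 (adjusted p = 0.0502), and rose from FAC by 0.39 with Mito-TEMPO (edgeR adjusted p = 0.00697). The eighth importer called with Mito-TEMPO was Slc39a7, at 1.02 to 4.16 CPM in FAC and MT+FAC (log2 -1.12, edgeR adjusted p = 0.0374). The gene Gm20427 covers 80.7% of its exonic bases, the groups overlapped, and the call was lost after thinning (adjusted p = 0.0604) and without FAC replicate 1 or 3 or MT+FAC replicate 1 or 2 (adjusted p from 0.0644 to 0.187). Mt3, Mt4, Slc30a2, Slc30a8, Slc39a2, Slc39a5 and Slc39a12 had too few counts to be tested.

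**Figure D4:**
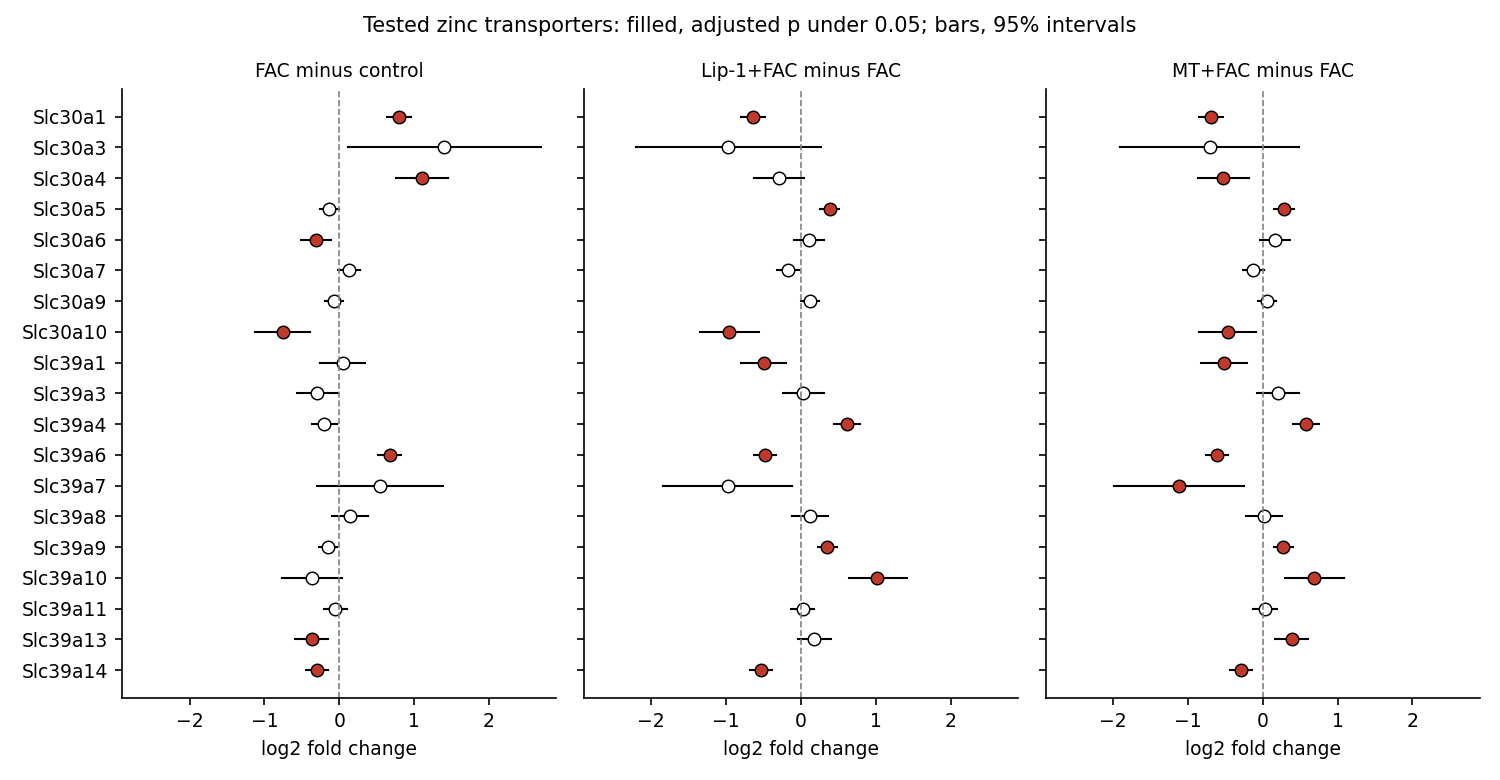
Log2 fold changes of the 19 tested zinc transporter genes for FAC minus control and for each scavenger group minus FAC, with 95% intervals from edgeR; filled points are those called at an adjusted p under 0.05. Slc30a1 and Slc39a6 are right of 0 in the first comparison and left of it in the others, while Slc30a10 and Slc39a14 are left of 0 in all 3.

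Other genes known to answer to MTF1 or to the inducers of metallothionein were counted by list. Of 9 genes listed as MTF1 targets, 4 of them members, 5 rose and 0 fell with FAC (5 of 9 called, against 36.6% of all genes tested), a median of log2 0.74. With liproxstatin-1, 7 fell and 2 rose from FAC (9 of 9, against 39.9%), a median of -0.80, and with Mito-TEMPO 7 fell and 1 rose (8 of 9, against 40.9%), a median of -0.69. The list mixes genes that MTF1 is known to switch on with Slc39a10, which it is known to repress. Slc39a10 was among those that rose from FAC with each scavenger. Pgf, a growth factor of the VEGF family, was at 122, 102 and 105 CPM in control, 308, 291 and 367 CPM with FAC, 31.8, 42.4 and 44.9 CPM in Lip-1+FAC, and 51.4, 78.7 and 58.5 CPM in MT+FAC. Like Mt1, it was highest with FAC and under control with either scavenger. It rose by log2 1.55 with FAC (edgeR adjusted p = 7.32e-05) and fell from FAC by 3.02 with liproxstatin-1 (edgeR adjusted p = 8.3e-07) and by 2.35 with Mito-TEMPO (edgeR adjusted p = 4.8e-06).

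Metallothionein genes are also known to answer to glucocorticoids, to the acute phase response and to oxidants. Of 8 glucocorticoid-responsive genes, 4 rose and 3 fell with FAC (7 of 8 called, against 36.6% of all genes tested), a median of log2 0.02. The largest of these changes were in Tat (log2 -0.88, edgeR adjusted p = 2.21e-04), Per1 (log2 0.86, edgeR adjusted p = 8.84e-05) and Tsc22d3 (log2 -0.80, edgeR adjusted p = 2.38e-07). From FAC, 7 fell with liproxstatin-1 and 5 with Mito-TEMPO, where 19.2% and 19.7% of all genes tested fell, and none rose. Of these, Dusp1, a phosphatase of MAP kinases, fell from FAC by log2 1.20 (edgeR adjusted p = 2.83e-10) and 0.99 (edgeR adjusted p = 3.12e-09) in turn. Of 17 acute phase genes, 1 rose and 8 fell with FAC (9 of 17 called, against 36.6%). From FAC, 10 fell and 4 rose with liproxstatin-1 (14 of 17, against 39.9%), and 9 fell and 4 rose with Mito-TEMPO (13 of 17, against 40.9%). Steap4, a metalloreductase of iron and copper in that list, ran opposite to Mt1: it fell by log2 1.90 with FAC (edgeR adjusted p = 1.76e-09) and rose from FAC by 1.77 (edgeR adjusted p = 2.8e-09) and 1.93 (edgeR adjusted p = 2.54e-09) with the scavengers. Saa1, a serum amyloid, fell from FAC by log2 1.40 with liproxstatin-1 (edgeR adjusted p = 1.2e-04) and 1.31 with Mito-TEMPO (edgeR adjusted p = 2.07e-04), the direction Mt1 took. Saa2, another serum amyloid, fell from FAC by log2 1.67 (edgeR adjusted p = 2.2e-05) and 1.49 (edgeR adjusted p = 5.48e-05) in turn. Saa2 was the acute phase gene that rose with FAC (log2 0.47, edgeR adjusted p = 0.0401), a call lost under 10 of the 21 alternatives (adjusted p up to 0.133).

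Of 20 NRF2 targets, which answer to oxidants and electrophiles, 17 rose and 1 fell with FAC (18 of 20 called, against 36.6% of all genes tested), a median of log2 0.61. Hmox1, the heme oxygenase gene, rose by log2 3.10 (edgeR adjusted p = 7.2e-12), several times the log2 change of Mt1. From FAC, Hmox1 then fell by 0.79 with liproxstatin-1 (edgeR adjusted p = 2.85e-06), a value outside the naming rule and chosen after it was seen, and by 1.02 with Mito-TEMPO (edgeR adjusted p = 3.24e-07). Relative to FAC, 12 of the list rose and 3 fell with liproxstatin-1 (15 of 20, against 39.9%), and 10 rose and 4 fell with Mito-TEMPO (14 of 20, against 40.9%). Nqo1, a quinone reductase, rose from FAC by log2 1.42 (edgeR adjusted p = 4.75e-08) and 1.11 (edgeR adjusted p = 9.78e-07) in turn.

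Between the scavengers, 8 of the 20 NRF2 targets were lower in MT+FAC than in Lip-1+FAC and none higher, against 1.34% of all genes tested called in either direction. Slc7a11, the cystine carrier that feeds glutathione synthesis, was among them (log2 -0.60, edgeR adjusted p = 5.79e-04). Of the 8 glucocorticoid-responsive genes, 2 were higher in MT+FAC and 0 lower. These were Tsc22d3 (log2 0.55, edgeR adjusted p = 6.42e-04) and Zbtb16 (log2 0.42, edgeR adjusted p = 0.0149). The call of Zbtb16 was lost without Lip-1+FAC replicate 1 or 2 or MT+FAC replicate 1.

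Copper and manganese share carriers and binding proteins with zinc. Of 12 copper-handling genes tested, 0 rose and 5 fell with FAC, a median of log2 -0.08; 5 of 12 called is near the 36.6% of all genes tested. Cp, which encodes the copper ferroxidase ceruloplasmin, fell by log2 0.74 with FAC (edgeR adjusted p = 1.73e-06) and rose from FAC by 1.27 with liproxstatin-1 (edgeR adjusted p = 3.91e-09) and 1.17 with Mito-TEMPO (edgeR adjusted p = 1.9e-08). Of 7 manganese-handling genes, Slc30a10 and Slc39a14 included, 1 rose and 3 fell with FAC (4 of 7 called, against 36.6%). The 1 that rose was Slc40a1, the iron exporter ferroportin (log2 1.12, edgeR adjusted p = 1.12e-10). Of 9 zinc enzymes abundant in liver, 1 rose and 5 fell with FAC (6 of 9 called, against 36.6%), a median of log2 -0.50. Adh1, the zinc-dependent alcohol dehydrogenase, fell by log2 0.71 (edgeR adjusted p = 3.77e-08).

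The genes whose levels tracked each member most closely were found by Pearson r of log2 CPM over the 12 libraries, among 9138 genes with a mean of at least 5 CPM. The points share library depth and the group differences above, so the values are a description. Nearest to Mt1 were Hmga1 (r = 0.984), Hspb1 (0.982) and Ier3 (0.979), and nearest to unstranded Mt2 were Myl12a (0.992), Serpina1c (0.982) and Serpina1a (0.981). Slc30a1 lay nearest to Itgav (0.98), Ube2q2 (0.976) and Skil (0.973). Close to Slc30a10 lay Wbp1l (0.985) and the importer Slc39a14 (0.968), and nearest to Slc39a10 were Nr3c2 (0.958), Gsta3 (0.944) and Nudt19 (0.942). The nearest to Mtf1 and Slc39a8 were looser, led by Angpt2 (0.918) and Kdm5a (0.892). Among the members, Mt1 had r = 0.931 with Mt2, 0.729 with Slc30a1 and -0.809 with Slc39a10.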

How the data were processed

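RNA was measured in 12 libraries of primary mouse hepatocytes, amplified from total RNA with a SMART-Seq v4 kit and tagged with Nextera XT, per the labels' protocols. The authors deposited raw read counts per gene, not normalized, in the layout of STAR, which the submitters' processing notes name with build GRCm38; its version and annotation are not given in the sources used here. The unstranded count column was analysed, as the deposited counts split evenly by strand. The special lines of that layout, 18.8% to 24.2% of each library, stayed out of library sizes and tests. Symbols, coordinates and exons came from GENCODE M21, which held 55227 of the 55487 identifiers.

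Groups and replicate numbers came from the sample titles. The tests used edgeR 4.0.16 in R 4.3.3 (filterByExpr, TMM, robust glmQLFit and glmQLFTest with 4 group means over all 12 libraries, two-sided, Benjamini-Hochberg over 13535 genes); the common biological coefficient of variation was 9.71%. The code was tested on simulated data. Per-library shares and ratios had exact permutation tests (scipy 1.17.1). Replicates differed by more than counting noise, with a chi-square of 8.56 to 22.6 per degree of freedom. Reads carry no molecular identifiers, so counts are not independent molecules.

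The members and gene lists were chosen with earlier results of these data known, so that their counts are descriptions. The 7 members are named throughout, any called gene of the metallothionein, Slc30 and Slc39 families may be, and of other lists at most the 3 called genes with the largest change. Alternatives were DESeq2 1.42.0, RLE and upper-quartile scaling, other filters, thinning to 22991598 gene counts, the stranded columns summed, fits of only the libraries compared, a replicate block, leaving mitochondrially encoded genes out of the share, and leaving out each library. Near-identical copies were sought with blastn 2.17.0+ (at least 94% identity over 300 bases). One gene that the likeness rule picks is not reported here.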

Additional observations from a re-analysis of the deposited data

How the results depend on the processing

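Of 42 member differences, 18 were called, and 14 of those kept their direction and call under every alternative that tested them, 21 for each but Slc39a10, which a mean CPM of at least 5 drops and which had 20; the other 4 calls are given in the report with what ended them. No called member reversed. Of the 24 not called, 5 were called under at least 1 alternative; among these Mt2 in MT+FAC against control was called by DESeq2 (adjusted p = 0.0218). Those not called that changed sign were all near 0. Mt1 in MT+FAC against Lip-1+FAC was log2 -0.0057 with the stranded columns summed, -0.00072 after thinning, and -0.13 to 0.098 over the fits without 1 library. Mtf1 in that comparison was 0.00059 at a mean CPM of at least 5, 0.0063 with no filter, 0.0014 with the stranded columns summed, 0.0025 after thinning, 0.014 with upper-quartile scaling and -0.053 to 0.054 over the fits without 1 library. Slc39a8 in MT+FAC against FAC was -0.0037 with the stranded columns summed, -0.00043 after thinning and -0.046 to 0.073 without 1 library. Mtf1 in FAC against control ran from -0.0073 to 0.10 without 1 library.

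The count of all genes called in MT+FAC against Lip-1+FAC moved from 182 to 462 with DESeq2, 477 with no filter, 312 with only the libraries compared, and 74 to 255 without 1 library. Its split was 63 higher and 119 lower, 85 and 97 with upper-quartile scaling, and 80 and 76 without MT+FAC replicate 1. The higher genes were thus 34.6% of those called, 26.6% after thinning, 51.3% when that MT+FAC library was left out and 17.1% without Lip-1+FAC replicate 1. In MT+FAC against control, members called went from 2 to 1 with no filter and to 1 to 3 without 1 library. The difference in the metallothionein share between MT+FAC and Lip-1+FAC ran from -0.0112 to 0.011 percentage points without 1 library. The difference in the ratio of unstranded Mt1 to Mt2 counts ran from -71.5 to 30.5 for FAC against control and from -38.8 to 151.2 for MT+FAC against Lip-1+FAC. The cause was not tested.

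Replicate numbers did not pair the libraries: deviations of same-numbered libraries from their group means correlated at -0.249 to 0.164, and 4 of 12 libraries correlated best with their own number. With a replicate block, 4863, 5278, 5488, 193, 3961 and 2553 genes were called for FAC against control, Lip-1+FAC against FAC, MT+FAC against FAC, MT+FAC against Lip-1+FAC, Lip-1+FAC against control and MT+FAC against control, and 3, 5, 5, 0, 3 and 2 members.

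Low counts limit unstranded Mt2, at 35 to 459 per library, Slc39a10, at 58 to 155, and Slc30a10, at 69 to 355.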
